A study of Mus musculus with 2 samples.

Results

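Bok, Cpne4, Nectin3, Trps1, Iyd and Coch are genes known as markers of CA3 pyramidal cells, and they were taken by name from the GENCODE mouse M21 annotation. They are 6 of the 21938 protein-coding genes annotated on the chromosomes used, and each lies on a different chromosome. Chromatin accessibility around them was assayed by DNase-seq: nuclei are treated with DNase I, which cuts preferentially where nucleosomes do not cover the DNA, and the sequenced cut ends pile up over accessible regions. The tissue was hippocampus from B6CASTF1/J males at the age of 10 days, the first-generation hybrid of C57BL/6J and CAST/EiJ, and the labels call it a layer of hippocampus. There was 1 group of 2 libraries, numbered 1 and 2 as biological replicates, each made from a tissue sample described as coming from 3 males. No mutation, transgene or treatment is named in the labels and there is no second condition, so no test between conditions was possible and the spread is that between these libraries. Both libraries carry the same donor label, and the sources used here do not say whether any animal went into both. The tissue was not sorted, so fewer accessible cells and less access per cell cannot be told apart, and an accessible region cannot be assigned to CA3 cells from these data.

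CA3 pyramidal cells are the excitatory neurons in the middle of the hippocampal circuit. Mossy fibres from the granule cells of the dentate gyrus contact them through large synapses, they excite each other through recurrent collaterals, and their Schaffer collaterals drive the pyramidal cells of CA1. In mice of the age studied the cells are born and in place, while mossy fibre synapses are still maturing. The promoters of active genes are usually free of nucleosomes, and genes restricted to a cell type are often governed by enhancers, short regulatory regions that can lie in introns or far from the promoter.

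For each library the authors deposited a shorter and a longer list of accessible regions, each region with a signal height that is the authors' own value. They also deposited a false discovery rate (FDR) of the cut rate per base, and a list of footprints, short stretches inside accessible DNA that are cut less than their surroundings. The shorter lists held 54546 regions in replicate 1 and 74278 in replicate 2, with 226223 and 345745 footprints, and the sources used here do not state the reads per library. Replicate 2 also gave the greater heights: over the 13008 coding genes with a region at a start in both libraries, the log2 ratio of replicate 2 to replicate 1 for the tallest region at a start had a median of 0.32. Accessible, or open, here means that the shorter list had a region no further than 1000 bp from any annotated transcription start of the gene. Of the tissue's marker lists, 4 of 4 general neuronal genes (Rbfox3, Map2, Snap25, Syt1) were accessible in both libraries, and so were 5 of 8 genes of hippocampal pyramidal and granule neurons. Among genes of other cells in the tissue, 2 of 3 for CA2, 1 of 3 for astrocytes, 2 of 3 for oligodendrocytes, 0 of 3 for microglia, 0 of 2 for endothelium and 0 of 2 for choroid plexus were accessible in both. Of all coding genes 59.3% were accessible in both, so 5 of 8 and 2 of 3 are near the share of all genes. No list was tested against that share. Those accessible in neither were Fibcd1 and Mpped1 of the neuronal genes, Rgs14 of CA2, Mog, Cx3cr1, Cldn5 and Pecam1, and Dsp was accessible in replicate 2 alone, at 0.557.

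The 6 genes fell into a set with an accessible promoter and a set without one in 1 or both libraries. In replicate 1, 4 of 6 genes were open, against 59.6% of all coding genes, and in replicate 2, 5 of 6 were open, against 64.0%. Nectin3, Cpne4, Bok and Trps1 were open in both libraries, 4 of 6 against 59.3%, Coch was open in replicate 2 alone, and Iyd was open in neither. With the longer lists 5 of 6 were open in both, against 64.4%, the addition being Coch. The shares of the 6 genes are thus near those of all coding genes.

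The height of the tallest region at a start set the same order in both libraries for the 4 genes open in both, with Nectin3 first, then Cpne4, Bok and Trps1. Coch was below them in replicate 2 and had no region in replicate 1. Nectin3, at 3.71 and 4.56, stood above every value of the other genes. Cpne4 gave 1.41 and 2.44, Bok 1.13 and 1.42, and Trps1 1.04 and 1.32. The values of Cpne4 and Bok, and those of Bok and Trps1, overlapped across libraries, so those neighbours do not differ beyond the spread between libraries. That spread includes the greater heights of replicate 2 at most genes, and within each library the order was the same. Of these 4 genes only Nectin3 exceeded the median of open coding genes, which was 2.59 in replicate 1 and 3.14 in replicate 2.

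**Figure D1:**
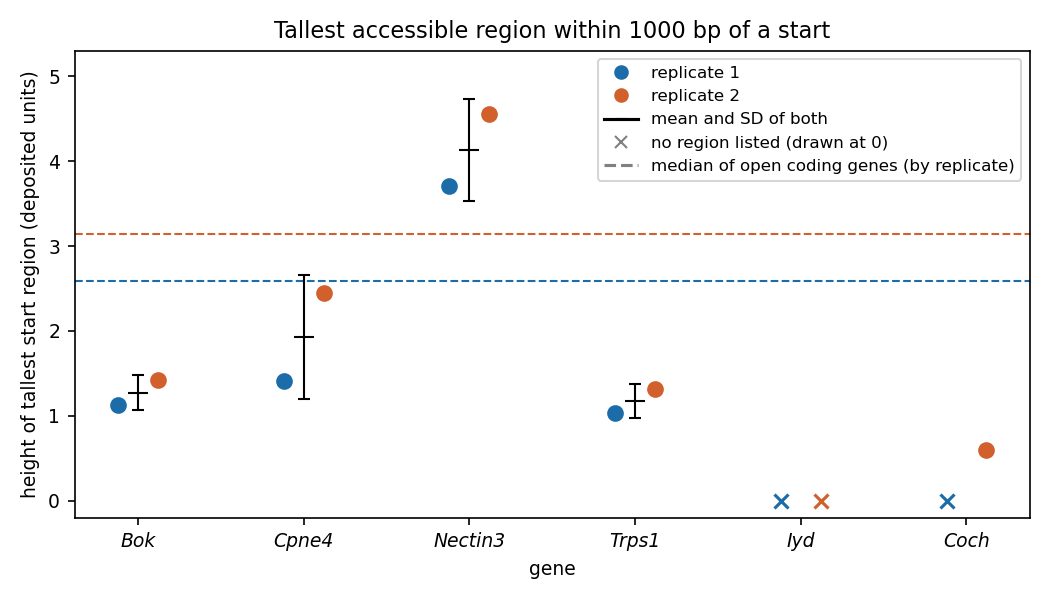
Height of the tallest region within 1000 bp of an annotated start (vertical axis, deposited units) for the 6 genes (horizontal axis), with points for replicates 1 and 2 and bars for their mean and SD. A cross at 0 stands for no listed region, and the dashed lines are the medians over open coding genes, 2.59 and 3.14. Only Nectin3, at 3.71 and 4.56, lies above the lines, while Iyd has a cross in both libraries and Coch in replicate 1.

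Nectin3 (ENSMUSG00000022656.15, chr16:46387706-46498525, minus strand, 111 kb) encodes nectin-3, an immunoglobulin-like adhesion molecule that binds nectin-1 across the adherens-type junctions of mossy fibre synapses and is anchored inside the cell by afadin. Its tallest region, chr16:46496961-46497180, covers the start of the principal transcripts Nectin3-201 and Nectin3-202 at 46496967 and includes UTR sequence. It reached 3.71 in replicate 1 and 4.56 in replicate 2, averaging 4.13 ± 0.603 (SD, n = 2), which stood at the 69.3 and 72.0 percentiles of open coding genes. Next to it, and upstream of that start, lay a second tall region of 3.03 and 3.57 that overlaps an intron of an upstream transcript. It is shown because it held 6 footprints in replicate 1 and 7 in replicate 2, and capitals mark the 66 bases that lay in a footprint of both libraries. The sequence is from the reference mm10, plus strand, and may differ from the CAST/EiJ allele, as may the sequences below.
Nectin3 promoter, chr16:46497221-46497480: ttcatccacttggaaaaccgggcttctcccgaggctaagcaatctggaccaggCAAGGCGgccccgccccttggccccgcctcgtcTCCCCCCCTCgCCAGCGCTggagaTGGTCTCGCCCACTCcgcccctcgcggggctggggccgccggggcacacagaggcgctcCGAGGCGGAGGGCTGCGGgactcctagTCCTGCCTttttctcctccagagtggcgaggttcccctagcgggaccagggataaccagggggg

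The FDR at this start reached 4.49e-37 in replicate 1 and 8.25e-54 in replicate 2, the lowest for any start of the 6 genes. Of the 9 annotated starts of Nectin3, 4 had a region within 1000 bp in both libraries: 46496772, 46496852, 46496967 and the outermost one at 46498525, that of the processed transcript Nectin3-209, where the heights were only 0.503 and 0.737. The 5 starts inside the gene, from 46411169 to 46448510, had none in either library. The accessible starts thus lay together at the 5′ end of the gene. The principal start sits in sequence of 74.2% GC with an observed-to-expected CpG ratio of 0.958 over 1 kb, where 1 would mean as many CpG pairs as the base composition alone gives.

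Away from every start, Nectin3 had 1 region, in an intron 8.81 kb from the start at 46496772. The heights there were 1.01 and 1.27 in replicates 1 and 2 (mean 1.14 ± 0.189, SD, n = 2), and it was at the 53.8 and 69.1 percentiles of such regions. It held 3 footprints in each library, all 3 overlapping between them, and the 38 bases protected in both are in capitals.
Nectin3 intronic region, chr16:46487794-46487964, mm10, plus strand: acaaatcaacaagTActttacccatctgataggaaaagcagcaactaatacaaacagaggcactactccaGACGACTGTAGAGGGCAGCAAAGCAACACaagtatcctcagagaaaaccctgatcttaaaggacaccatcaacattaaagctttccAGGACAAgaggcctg

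Cpne4 (ENSMUSG00000032564.16, chr9:104547286-105034544, plus strand, 487 kb) encodes copine 4, of a family of proteins that bind membrane phospholipids when calcium rises. It is the longest of the 6 genes. The start of the principal transcript Cpne4-201 at 104569483, with that of Cpne4-202 at 104569787, was open in both libraries. The region there reached 1.41 in replicate 1 and 2.44 in replicate 2, averaging 1.93 ± 0.727 (SD, n = 2), at the 23.3 and 38.0 percentiles of open coding genes. The log2 ratio between the libraries, 0.79, was the greatest of the 4 genes, and within the range of -0.13 to 0.82 that holds the 5th to 95th percentiles of all genes open in both. The start of Cpne4-204 at 104566677 had a region in replicate 2, of 0.650, and in replicate 1 only in the longer list, at 0.434. The outermost start at 104547286, that of Cpne4-203, had no region, nor did the inner starts at 104585338 and 104872679.

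In its introns and exons Cpne4 had 4 regions away from starts in replicate 1 and 3 in replicate 2, of which 2 were shared. The taller of these lies in an intron 4.77 kb from the start at 104569787, with heights of 1.25 and 1.84, a mean of 1.55 ± 0.417 (SD, n = 2). It is shown because it reached the 66.7 and 81.9 percentiles of regions away from starts, and because it held 1 stretch of 26 bases, in capitals, that was a footprint in both libraries.
Cpne4 intronic region, chr9:104574561-104574748, mm10, plus strand: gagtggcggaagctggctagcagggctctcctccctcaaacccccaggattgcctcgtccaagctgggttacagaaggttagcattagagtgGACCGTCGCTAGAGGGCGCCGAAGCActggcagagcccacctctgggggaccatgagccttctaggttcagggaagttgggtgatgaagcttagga

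The other shared region, chr9:104929036-104929128, lies deep in the gene, 56.4 kb from its nearest start, and was low at 0.465 and 0.612. The remaining regions of Cpne4 were also low. In replicate 1 they were chr9:104841010-104841111 in an intron, of 0.465, and chr9:105032738-105032806 over a coding exon, of 0.427. Both were present in replicate 2 only in the longer list, at 0.399 and 0.382. In replicate 2 the unshared region was chr9:104693323-104693406, of 0.404, which had no counterpart in either list of replicate 1.

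Trps1 (ENSMUSG00000038679.16, chr15:50654752-50890463, minus strand, 236 kb) encodes a GATA-type zinc finger protein that represses transcription and is mutated in tricho-rhino-phalangeal syndrome. Several low regions, rather than a single tall one, lay along its 5′ end: 3 in replicate 1 and 5 in replicate 2. The tallest reached 1.04 in replicate 1 and 1.32 in replicate 2, averaging 1.18 ± 0.201 (SD, n = 2), at the 13.7 and 17.8 percentiles of open coding genes. In replicate 2 a single region of 620 bp, chr15:50889861-50890480, covered what in replicate 1 were separate regions of 120 and 60 bp. Of the 8 annotated starts, 6 were open in both libraries, among them those of the principal transcripts Trps1-202 at 50889691 and Trps1-201 at 50890041. The starts at 50827521 and 50882806, further inside the gene, had no region. The sequence at the outermost start has 55.5% GC and a CpG ratio of 0.805, at the 80.3 percentile of coding genes for CpG.

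The region of Trps1 away from starts that both libraries shared lies in an intron, 13.0 kb from the start at 50882806. The libraries gave it heights of 0.717 and 1.23 (mean 0.973 ± 0.362, SD, n = 2), at the 30.5 percentile of such regions in replicate 1 and the 67.7 percentile in replicate 2. It is shown for its base composition, 71.4% GC, the highest of the 6 shared regions in these loci. It held 3 footprints in replicate 1 and 2 in replicate 2, but no base was in a footprint of both, so there are no capitals.
Trps1 intronic region, chr15:50869549-50869817, mm10, plus strand: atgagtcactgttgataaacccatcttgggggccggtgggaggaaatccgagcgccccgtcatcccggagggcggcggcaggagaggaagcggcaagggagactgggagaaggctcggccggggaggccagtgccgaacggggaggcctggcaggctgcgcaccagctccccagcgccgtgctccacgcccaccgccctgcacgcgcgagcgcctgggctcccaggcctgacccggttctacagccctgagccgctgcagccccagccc
A further intronic region, chr15:50735981-50736174, had a height of 0.616 in replicate 1 and was in replicate 2 only in the longer list, at 0.306.

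Bok (ENSMUSG00000026278.14, chr1:93685660-93695764, plus strand, 10.1 kb) encodes BCL2-related ovarian killer, a relative of BAX and BAK that promotes cell death and resides largely on the endoplasmic reticulum. In both shorter lists its accessible DNA lay at the 5′ end alone. The tallest region reached 1.13 in replicate 1 and 1.42 in replicate 2, averaging 1.27 ± 0.209 (SD, n = 2), at the 16.0 and 19.9 percentiles of open coding genes. In replicate 1 it ends just upstream of the start of the principal transcript Bok-201 at 93685660, and in replicate 2 it reaches into the 5′ UTR. The upstream sequence is shown as the promoter of a gene with no other shared region. Capitals mark the 45 bases that were in footprints of both libraries, in 2 stretches.
Bok upstream region, chr1:93685436-93685622, mm10, plus strand: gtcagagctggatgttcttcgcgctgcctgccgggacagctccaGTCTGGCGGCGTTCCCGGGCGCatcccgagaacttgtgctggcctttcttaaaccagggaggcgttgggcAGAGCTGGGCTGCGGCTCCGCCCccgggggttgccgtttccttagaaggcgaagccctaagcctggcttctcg
A second region of Bok, chr1:93686461-93686880 over a coding exon, had a height of 1.35 in replicate 2 and was in replicate 1 only in the longer list, at 0.666. The inner starts at 93689208 and 93693817 had none in either shorter list, and neither did the DNA away from starts.

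Iyd (ENSMUSG00000019762.4, chr10:3540240-3554877, plus strand, 14.6 kb) encodes iodotyrosine deiodinase, the enzyme that recovers iodide from iodinated tyrosines in the thyroid. Neither of its starts, at 3540240 and 3540288, had a region within 1000 bp in either shorter list. The longer lists gave 1 such region, of 0.442, in replicate 2. Within 1000 bp of the start at 3540240, no base had a listed FDR (up to 0.05) in replicate 1, and 203 bases had one in replicate 2, none of them at or below 0.001, with a lowest value of 0.00466. The sequence around the start is poor in CpG, with a ratio of 0.255 at the 29.1 percentile of coding genes.

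Upstream of the gene lay the tallest region away from starts in any of the 6 loci. It sits 8.52 kb upstream of the outermost start, and it reached 2.79 in replicate 1 and 3.30 in replicate 2, averaging 3.04 ± 0.360 (SD, n = 2). That put it at the 94.8 and 94.3 percentiles of regions away from starts, and the FDR there reached 4.11e-23 and 3.23e-30. A second region, 5.58 kb upstream in the bounds of replicate 2, had heights of 1.06 and 1.41, a mean of 1.24 ± 0.245 (SD, n = 2), at the 57.2 and 73.1 percentiles. The nearest start of another coding gene, Ppp1r14c, is 165 kb from the taller region. Which gene these regions act on, if any, was not tested. Both are shown because they are the accessible DNA of the Iyd locus, with 38 and 58 bases protected in both libraries in capitals.
Iyd upstream region 1, chr10:3531521-3531720, mm10, plus strand: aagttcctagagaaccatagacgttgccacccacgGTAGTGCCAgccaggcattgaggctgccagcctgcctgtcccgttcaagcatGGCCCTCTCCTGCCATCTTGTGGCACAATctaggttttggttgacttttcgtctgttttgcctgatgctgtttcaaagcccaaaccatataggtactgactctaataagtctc
Iyd upstream region 2, chr10:3534441-3534660, mm10, plus strand: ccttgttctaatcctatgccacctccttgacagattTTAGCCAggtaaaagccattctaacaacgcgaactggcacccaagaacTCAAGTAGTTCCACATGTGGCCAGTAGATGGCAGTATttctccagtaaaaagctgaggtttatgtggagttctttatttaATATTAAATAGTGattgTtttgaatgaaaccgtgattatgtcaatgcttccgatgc

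Over all coding genes, 7814 had no region at a start in either library, and 831 of these, Iyd included, had at least 2 shared regions away from starts in their locus. This combination in the shorter lists was thus found at many other genes.

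Coch (ENSMUSG00000020953.17, chr12:51593341-51605771, plus strand, 12.4 kb) encodes cochlin, a secreted protein of the extracellular matrix that is abundant in the inner ear. Its 4 annotated starts lie within a short stretch from 51593341 to 51593379. In replicate 2 a region of 340 bp, chr12:51593261-51593600, covered them with a height of 0.601, at the 3.49 percentile of open coding genes, and neither list of replicate 1 held a region overlapping it. A second region over a coding exon, chr12:51593641-51593860, had a height of 0.464 in replicate 2 and in replicate 1 appeared only in the longer list, at 0.446. The FDR showed the same contrast: within 1000 bp of the start at 51593341, 1003 bases were listed in replicate 2 and 683 of them were at or below 0.001, with a lowest value of 7.36e-09, while in replicate 1 there were 116 bases and none that low, the lowest being 0.0120. The 80 bases upstream of the outermost start are shown because the sequence is 80.0% GC, and none of them was in a footprint of both libraries.
Coch upstream sequence, chr12:51593261-51593340, mm10, plus strand: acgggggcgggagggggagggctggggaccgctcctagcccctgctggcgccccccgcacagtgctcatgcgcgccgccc

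Coch is 1 of 1042 coding genes open in replicate 2 alone, against 74 open in replicate 1 alone. Among marker genes of other cells, Csf1r and Tmem119 of microglia and Ttr and Kl of choroid plexus were also open in replicate 2 alone, at 0.869, 0.918, 0.497 and 0.552, whereas Aqp4 and Aldh1l1 of astrocytes were open in replicate 1 alone, at 0.811 and 0.553. The longer lists held Aqp4 and Aldh1l1 in replicate 2 as well, at 0.601 and 0.399. They held Tmem119 and Ttr in replicate 1, at 0.465 and 0.327, but not Csf1r or Kl. Going the other way, they held Cx3cr1 of microglia and Pecam1 of endothelium in replicate 1 alone, at 0.383 and 0.352. Cldn5 of endothelium was in both longer lists, at 0.509 in replicate 1 and 0.388 in replicate 2. Over the whole marker lists, 2 of 3 microglial, 2 of 2 choroid plexus, 0 of 2 endothelial and 1 of 3 astrocytic genes were open in replicate 2. In replicate 1 the counts were 0, 0, 0 and 3. Cx3cr1 and Pecam1 had no region at a start in either shorter list. The oligodendrocyte and CA2 lists each had 2 of 3 in each library. Of all coding genes 64.0% were open in replicate 2 and 59.6% in replicate 1. Their part in the difference at Coch was not tested. Away from starts, Coch had 1 region, chr12:51603301-51603379 over a coding exon, of 0.377 in replicate 2, and none in replicate 1.

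**Figure D2:**
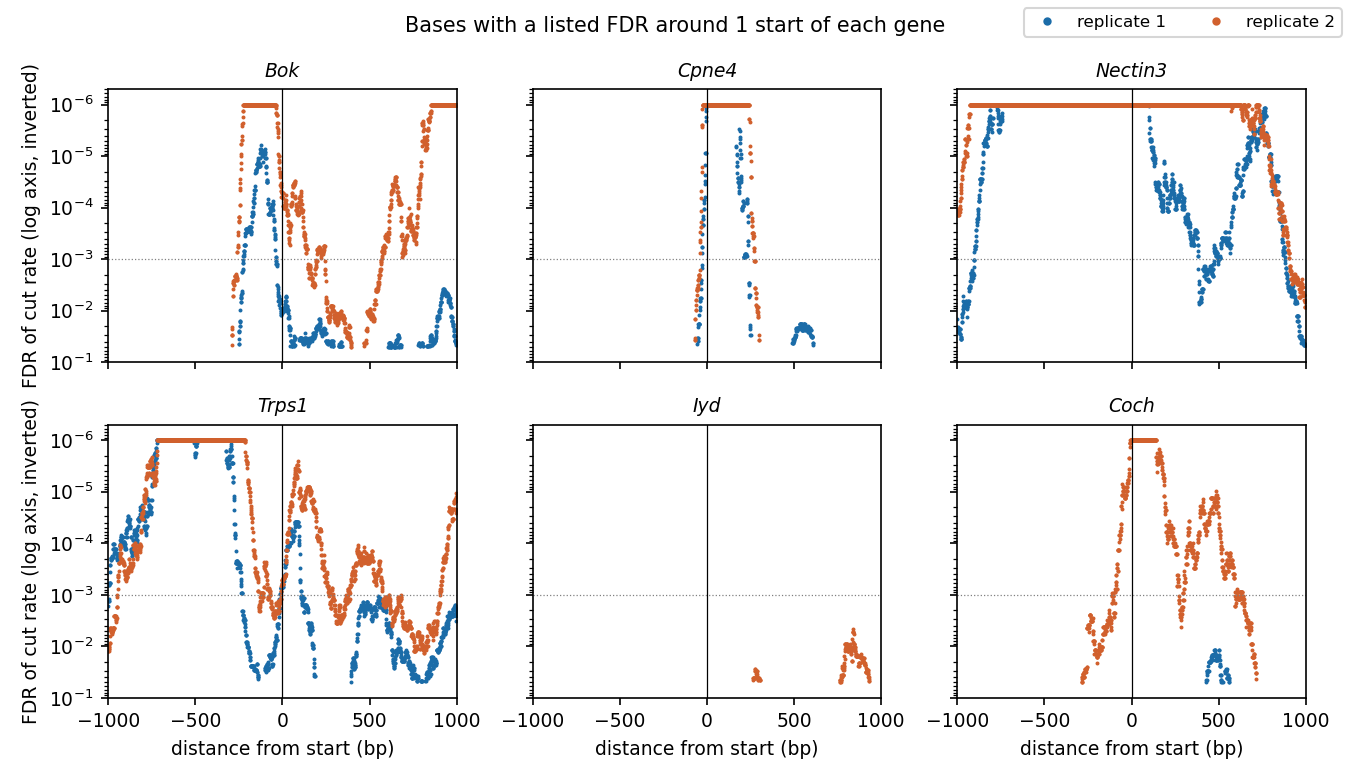
FDR of the cut rate per base (vertical axis, logarithmic and inverted, so that lower FDR is higher) against distance from 1 start of each gene in bp (horizontal axis), in replicates 1 and 2. Only listed bases are drawn, values under 1e-06 are drawn at 1e-06, and the dotted line is at 0.001. Nectin3 has listed bases over nearly the whole window in both libraries, Coch is past the line in replicate 2 only, and Iyd passes it in neither.

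In the 6 loci, each the gene body with 10 kb on either side, the shorter lists held 18 regions in replicate 1 and 25 in replicate 2, and 15 of each overlapped a region of the other library. Over the whole shorter lists, 88.3% of the regions of replicate 1 and 64.3% of those of replicate 2 did so. Those shares cover regions at starts and away from starts together, and no share is given for the latter alone. Of the 34 annotated starts, 15 had a region within 1000 bp in both libraries, 5 more in replicate 2 alone (15 and 20 in all), and 14 in neither. Neighbouring starts can share a region, and the share over all annotated starts is not given here. Of the 9 regions away from starts in replicate 1, 6 were shared, and the other 3 were all present in the longer list of replicate 2. Of the 8 in replicate 2, 2 were not shared, and neither was in the longer list of replicate 1. At least 1 shared region away from starts was found at 4 of 6 genes (Cpne4, Nectin3, Trps1 and Iyd), against 44.1% of all coding genes.

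**Figure D3:**
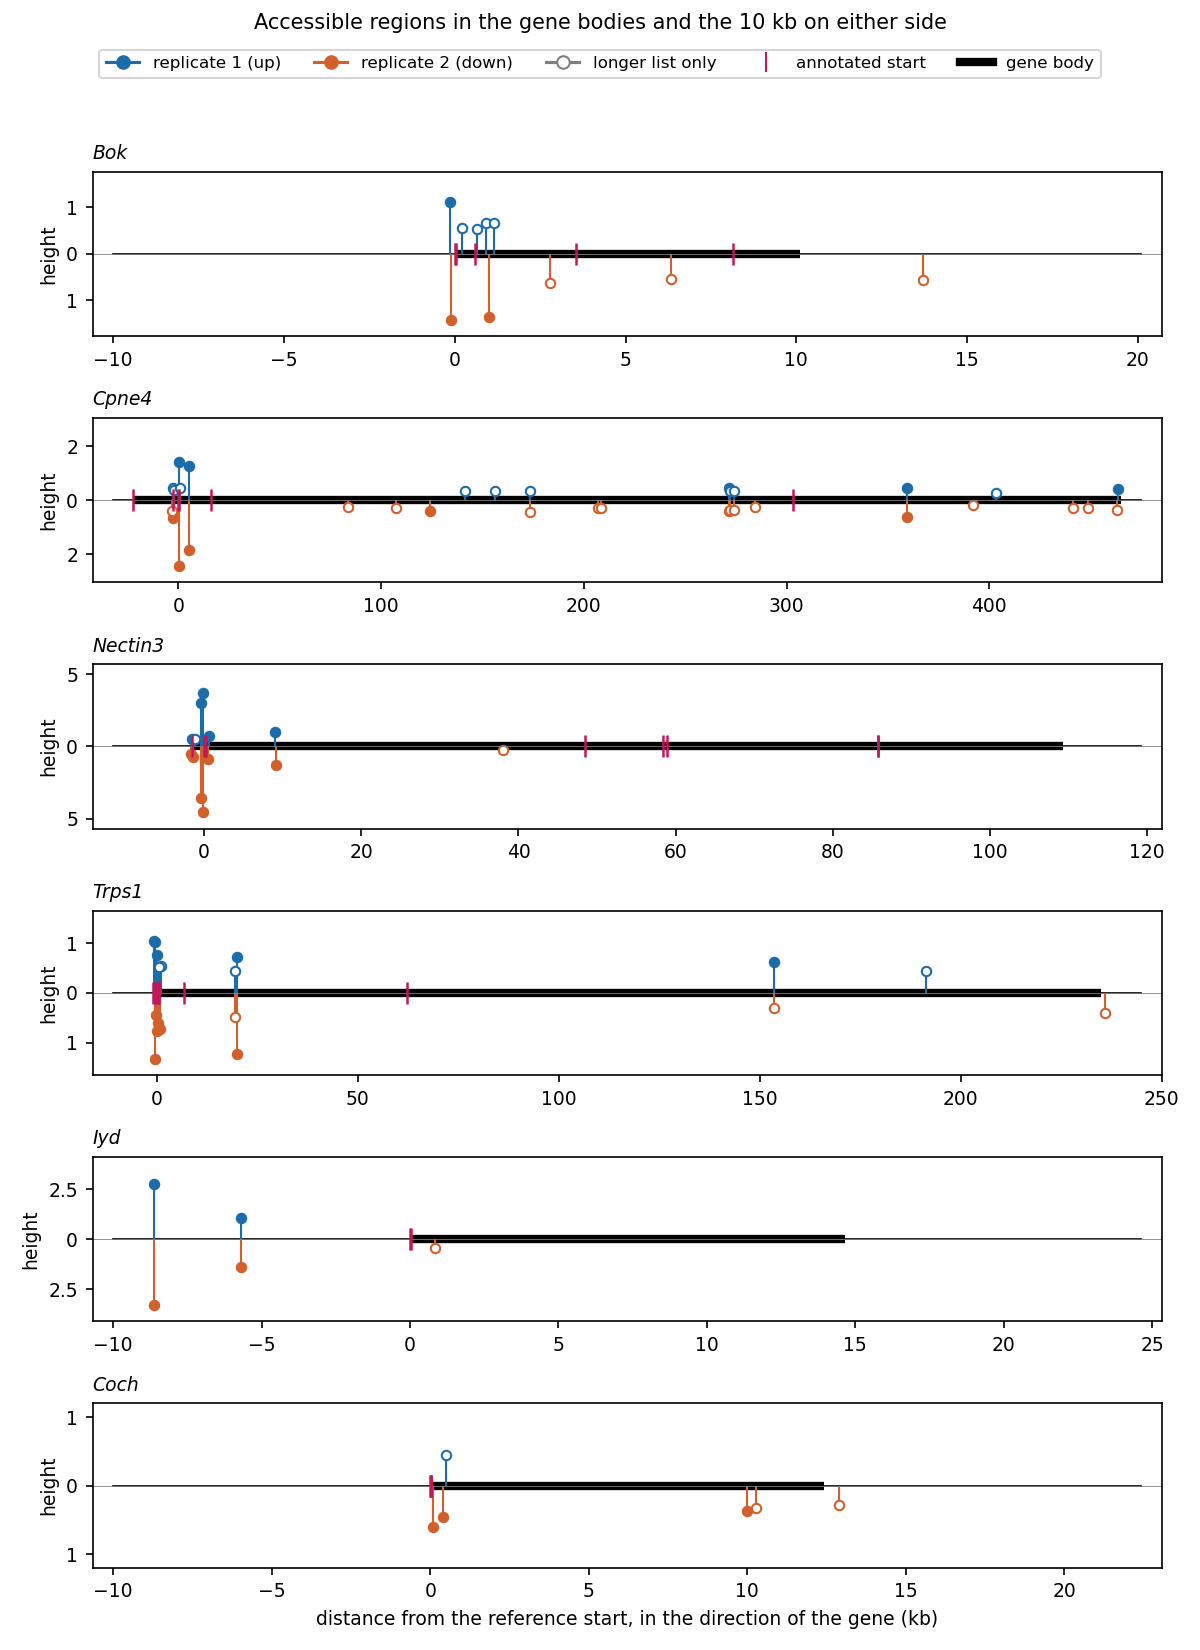
Regions in each locus by distance from a reference start in kb, in the direction of the gene (horizontal axis), with stems giving the height (vertical axis, deposited units) upward for replicate 1 and downward for replicate 2. Filled circles are regions of the shorter list, hollow circles those of the longer list alone, pink ticks annotated starts and black bars gene bodies. Accessible DNA of Bok, Nectin3 and Trps1 gathers at the 5′ end, Cpne4 has low regions along its 487 kb, and Iyd has its tall regions upstream of the gene.

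The short gene Iyd had as many shared regions away from starts as the long gene Cpne4. Iyd and Cpne4 each had 2, at the 84.7 percentile of coding genes, yet per 100 kb of locus this was 5.77 for Iyd and 0.394 for Cpne4. Nectin3 and Trps1 each had 1, which was 0.764 and 0.391 per 100 kb, and Bok and Coch had 0. The longer lists added most to Cpne4, with 7 shared regions, and brought Trps1 to 3, while Nectin3 stayed at 1, Iyd at 2, and Bok and Coch at 0.

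All 6 shared regions were taller in replicate 2, by 0.24 to 0.78 on the log2 scale. Over all 26833 shared regions away from starts the median was 0.29, the 5th to 95th percentiles ran from -0.37 to 0.86, and 76.7% were above 0, so the direction at these loci was that of the library as a whole. The Trps1 region, at 0.78, and the Cpne4 region at 4.77 kb, at 0.56, differed most between libraries, and the taller Iyd region, at 0.24, least. At the starts the log2 ratio was 0.30 for Nectin3, 0.34 for Bok, 0.35 for Trps1 and 0.79 for Cpne4, against the median of 0.32, with 87.2% of genes above 0.

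**Figure D4:**
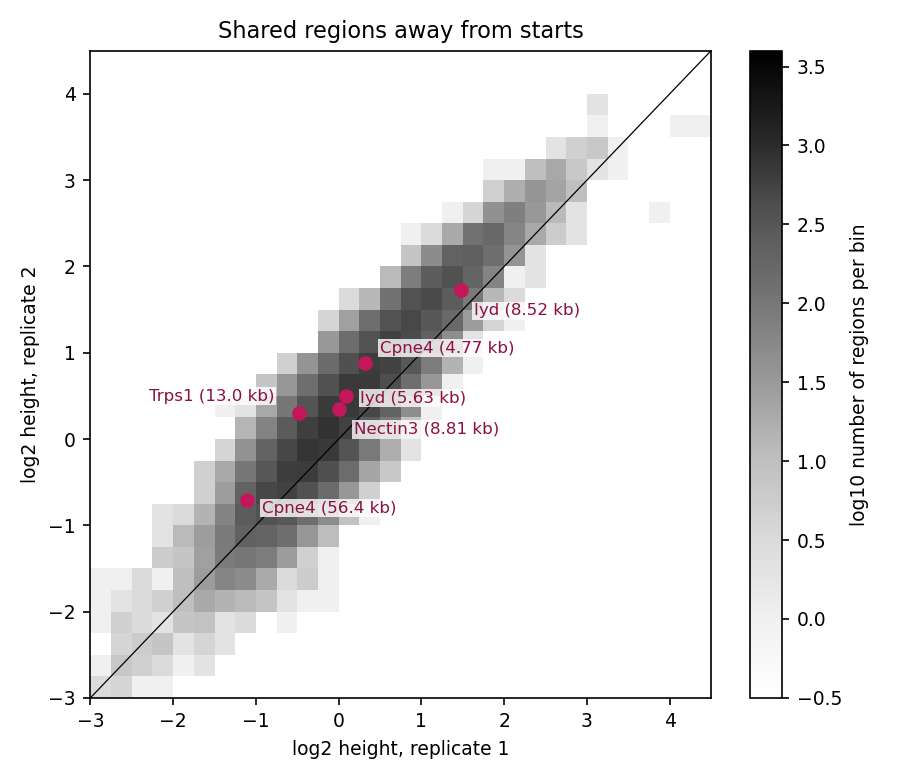
Height of shared regions away from starts in replicate 1 (horizontal axis, log2) and replicate 2 (vertical axis, log2), with grey shading for the number of regions per bin among all 26833 and points for the 6 regions of these loci, labelled by gene and distance from the nearest start. The line marks equal heights. All 6 points lie above it, where most regions do, and the Iyd region at 8.52 kb is the tallest in both libraries.

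Footprints in the loci numbered 67 in replicate 1 and 121 in replicate 2, and 32 of those in replicate 1 overlapped one of replicate 2. Nectin3 and Iyd had the largest parts found again, with 13 of 15 and 5 of 5 footprints of replicate 1. Cpne4 had 4 of 15, Trps1 6 of 22, Bok 3 of 8 and Coch 1 of 2. Of the footprints of replicate 2, 12 of 19 for Nectin3 and 6 of 8 for Iyd overlapped one of replicate 1. The other genes had 4 of 43 for Cpne4, 7 of 22 for Trps1, 3 of 18 for Bok and 1 of 11 for Coch. The share of all footprints that overlapped is not given here, so these counts are not set against it. Over the whole libraries replicate 2 also had the longer footprint list, and the part of this in the counts per gene was not tested.

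Sequence words of factors known in neurons or in chromatin structure were searched on both strands in windows of 200 bp centred on shared regions, 6 away from starts and 9 at starts. A match is a description of letters and not evidence of binding. The word for CTCF, a protein that organises chromatin loops, was matched exactly in the second Iyd region, as CCAGTAGATGGC at chr10:3534545-3534556, where it overlapped a footprint of both libraries. Exact matches were found in 14.5% of the 26833 windows away from starts. Elsewhere the fewest mismatches in the window were 1 in the taller Iyd region, 2 in the Cpne4 region at 4.77 kb, 2 in the Nectin3 region, 3 in the deep Cpne4 region and 4 in the Trps1 region. At most 1 mismatch was found in 38.0% of all windows, and at most 2 in 60.5%. The shorter core AGNNGGC, searched after these regions had been seen, overlapped a footprint of both libraries in 4 of the 6 regions (both of Iyd, and those of Nectin3 and Cpne4 with printed sequence), against 44.0% of all windows. It can overlap the CTCF word, of which it is a part.

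The word for MEF2, a family of activity-dependent neuronal factors, was found in 1 of 6 windows, against 1.54% of all: TTAATATTAA at chr10:3534602-3534611, in the second Iyd region, where it overlapped a footprint in each library. It lay inside the bounds of replicate 2 and across the end of the shorter bounds of replicate 1. The E-box of the NEUROD type, CAGATG, was in 2 of 6 windows, against 23.0%. It lay in the Nectin3 intronic region at 46487816 outside any footprint, and beside the deep Cpne4 region. The RFX motif GTTGCC, named for part of the site of RFX factors, was in 1 of 6 windows, against 11.2%, at 3531543 in the taller Iyd region, where a footprint of replicate 2 alone overlapped it. At starts it was in 3 of 9 windows, against 9.92%, in Bok, Nectin3 and Trps1, none in a footprint. The short NFI word TTGGCA was in 1 of 6 windows, against 21.5%, in the deep Cpne4 region. The cyclic AMP response element TGACGTCA, the AP-1 word TGANTCA, the EGR word GCGTGGGCG and the full NFI site (TTGGC and GCCAA, 5 bases apart) were in 0 of 6, against 0.410%, 6.11%, 0.153% and 0.149%. The AP-1 word does occur in the printed Trps1 intronic region, at chr15:50869550-50869556, near the edge of that region and outside its window, and no base of it was in a footprint of both libraries. In the windows at starts, the NEUROD E-box was in 1 of 9, against 8.70%, and the core AGNNGGC in 6 of 9, against 65.4%. The words for CTCF and MEF2 and the short NFI word were in 0 of 9, against 2.73%, 0.614% and 9.43%. The cyclic AMP, AP-1, EGR and full NFI words were also in 0 of 9, against 2.45%, 2.76%, 0.843% and 0.0562%. With 6 and 9 windows, no difference from all windows was tested.

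The starts with a region in both libraries were on the whole richer in GC and CpG than those without one. Over 1 kb around each, the 15 starts with a region in both ranged from 47.9% to 75.2% GC and from 0.375 to 1.02 in CpG ratio, and the 14 with none in either shorter list from 32.3% to 54.4% and from 0.145 to 0.383, so the ranges overlapped. The lowest CpG ratio among the former was that of the Cpne4-201 start, and the lowest GC content that of the outermost Nectin3 start, where the heights were low. The 4 Coch starts, with a region in the shorter list of replicate 2 alone, had 66.8% to 67.5% GC and CpG ratios from 0.761 to 0.767. The Cpne4-204 start, also with a region in replicate 2 alone, had 47.7% GC and a CpG ratio of 0.266. The Iyd starts had 46.9% and 47.5% GC. Neighbouring starts share much of their 1 kb, so they are not independent, and no test was run.

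Genes with the most similar pattern were found from percentile ranks of the tallest start region and of the number of regions away from starts, in each library, by Euclidean distance over these 4 ranks. For Nectin3 they were Foxa3, Itprid2 and Usp32, at distances of 0.539, 0.565 and 0.599. For Bok they were Lypd1 (0.383), Hapln2 (0.425) and Mc3r (0.443). Trps1 had Il1r2 (0.545), Ppp1r42 (1.13) and Cdh18 (1.40), and Cpne4 had Ptprf (2.84), B4galnt1 (3.65) and Nxn (3.98), so its combination was the least closely matched. Coch had Ptafr and Fzd6, both at 0, and Bend7 at 0.0524. Iyd tied with 280 genes at 0 and none is named.

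Of 6 other genes known from CA3 pyramidal cells, all 6 were open in both libraries. At least 1 shared region away from starts was found at 3 of 6, against 44.1% of all coding genes. For this list and the related lists below, the share of all coding genes open in both libraries was 59.3%. Spock1, a testican of the extracellular matrix, had 2.76 and 4.89 with 4 shared regions away from starts. Grik4, a kainate receptor subunit, had 3.64 and 4.41 with 10. Socs2, an inhibitor of cytokine signalling, had 2.77 and 3.46. Grik4 thus had more shared regions away from starts than all 6 of the genes described here together, which had 6. The lowest of the list in replicate 1 had start heights of 0.622 and 1.16, with 0 shared regions away from starts. These counts were not scaled to the length of the locus.

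Related adhesion genes placed Nectin3 between its relatives. Of 7 nectin, afadin and cadherin genes, 6 were open in both libraries, and Nectin4 in neither. Nectin2 was taller than Nectin3, at 6.78 and 7.25, and Nectin1, the presynaptic partner at mossy fibre synapses, was lower, at 2.83 and 3.36. Cdh2, which encodes N-cadherin, had 1.43 and 1.87. The values of Nectin1 and Nectin3 did not overlap, and nor did those of Nectin2 and Nectin3.

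Among 8 other copine genes listed, 5 were open in both libraries, Cpne6 in replicate 2 alone at 1.16, and Cpne7 and Cpne9 in neither. Cpne1 had 2.94 and 4.27, above both values of Cpne4, while Cpne5, at 1.97 and 2.62, and Cpne3, at 1.78 and 2.58, overlapped Cpne4 across libraries. Within each library both were above Cpne4. The 9 other BCL2 family genes listed, all 9 of them, were open in both libraries, against 59.3% of all coding genes. Bcl2l1, which encodes the survival protein BCL-XL, had 5.86 and 6.57, Bad 3.33 and 5.66, and Bax 3.50 and 4.44, each above both values of Bok. Not all of the 9 were above both values of Bok: the values 0.974 and 1.98 of a further gene, and 1.35 and 1.75 of another, overlapped those of Bok. Within each library the gene at 1.35 and 1.75 was above Bok. The gene at 0.974 and 1.98 was below Bok in replicate 1 and above it in replicate 2.

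Of 8 genes of thyroid hormone synthesis and action, 4 were open in both libraries. Thrb and Thra, the nuclear receptors, had 1.87 and 2.64, and 1.35 and 1.94, and Slc5a5, the iodide transporter, had 1.30 and 1.98. Dio2, which activates the hormone, was open in replicate 2 alone at 0.672, and Dio1, Dio3 and Tg were open in neither.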

How the data were processed

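The data are DNase-seq accessibility lists of 2 libraries of 1 group. The authors deposited, per library, a shorter and a longer list of accessible regions with a signal height, on mm10 per the labels. The height is the authors' value. Its normalisation, the region caller and the calling threshold are not stated there (not given in the sources used here), nor is the read depth, so no counting error could be attached. In the deposited footprint lists each row carries the p-value 0.01, taken as a limit, and the deposited FDR per base is an adjusted p-value listed up to 0.05. All region ends lay inside the GRCm38 chromosomes, and autosomes to 19, X and Y were used.

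From these, regions within 1000 bp of a GENCODE M21 start, regions in the gene body plus 10 kb, and footprints there were counted. Regions were shared at an overlap of 1 bp, counted as regions of replicate 1. Heights were summarised as mean and SD of 2 libraries, with percentiles over all coding genes or regions. No hypothesis test was run. GC and CpG were taken over 1000 bp at a start, and sequence words over 200 bp. Scripts used Python 3.11.15, pandas 2.3.3, numpy 2.4.6 and pysam 0.24.0, and were tested on simulated data.

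All 6 genes are described. From related lists the text names at most 3 genes with the tallest start regions and those open in 1 library or neither, and for each gene the 3 most alike, or none where over 10 tie. In the related lists, 1 gene is not reported here. The 6 genes, the lists and the words were chosen with earlier results of these data known, and the core of the CTCF word and the mismatch counts were added after the regions had been seen. Alternatives covered the longer list, start distances of 500 and 2500 bp, the stronger 50% of regions, equal numbers of regions, other loci, a reciprocal overlap of 50% and each replicate alone.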

Additional observations from a re-analysis of the deposited data

How the results depend on the processing

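The number of genes open in both libraries was 4, and between 3 and 5 under the alternatives run for it (the longer list, other start distances, the stronger 50% of regions and each replicate alone): 5 with the longer list, and 3 with the stronger 50% of regions, where Trps1 lost its region in replicate 1. The 6 shared regions away from starts became 13 with the longer list, 2 with the stronger 50% of regions, and 11 with 50 kb of flank in place of 10 kb. They numbered between 4 and 6 with the gene body alone, a reciprocal overlap of 50%, equal numbers of regions or other start distances, and replicates 2 and 1 alone held 8 and 9. The 32 footprints of replicate 1 that overlapped one of replicate 2 became 56 with 50 kb of flank, and the footprints of 1 library alone ranged from 67 to 121. The median of the tallest start region over the genes open in both libraries, 1.60, became 1.27 with the longer list, which added Coch, and over the 4 genes open in both shorter lists ranged from 1.27 to 1.93 with 1 library. No paired analysis was possible because both libraries belong to 1 group. Coch rests on replicate 2 alone. Depth was not given, replicate 1 has fewer regions, and a region missing from its shorter list is not shown to be closed.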
